A study of Mus musculus with 2 samples.

Results

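The glucocorticoid receptor gene Nr3c1 and 9 genes that glucocorticoids are known to induce (Fkbp5, Tsc22d3, Sgk1, Dusp1, Zfp36, Klf9, Mt1, Mt2 and Errfi1) were read in adrenal gland RNA by long-read sequencing, in which 1 read follows 1 cDNA across its exons. The members were found by gene name: every transcript model assigned to 1 of the 10 genes was taken, 44 of 65815 models in replicate 1 and 55 of 99180 in replicate 2. All 10 genes had reads in both libraries, out of 16400 annotated genes read in either library and 12578 read in both. The libraries came from whole adrenal glands of female B6CASTF1/J mice aged 25 days, the first-generation hybrid of C57BL/6J and CAST/EiJ, with no treatment named. They form 1 group of 2 biological replicates, so no condition could be compared. The library descriptions name 1 animal for both, whereas the tissue descriptions name a different animal for each. Differences between the libraries may therefore be technical in part. The p-values weigh them against counting error only and hold no measure of the spread between animals.

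Glucocorticoids are made by the adrenal cortex itself, and the receptor that Nr3c1 encodes waits in the cytoplasm in a complex with heat shock proteins and immunophilins. Bound by hormone, it enters the nucleus and binds DNA at paired half-sites called glucocorticoid response elements. Its induced genes include feedback inhibitors (Fkbp5), anti-inflammatory proteins (Tsc22d3, Dusp1, Zfp36), a kinase of ion transport (Sgk1), a transcription factor (Klf9), metal-binding proteins (Mt1, Mt2) and an inhibitor of growth factor receptors (Errfi1). Most of these genes also answer to other signals, and expression in untreated tissue does not show that the hormone caused it.

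Sgk1 and Tsc22d3 each have several first exons, and in some of their transcripts the first exon holds the start codon. The junctions between the first and the second exon are shown because they tell these transcripts apart. They were taken from GENCODE M21 transcripts on build mm10, 5′ to 3′, with the end of the first exon in lower case and the start of the second exon in capitals. The 4 Sgk1 first exons shown end at position 21978982 (Sgk1-213), 21994825 (Sgk1-201), 21994181 (Sgk1-202) and 21992407 (Sgk1-203) on the plus strand of chromosome 10. All 4 join a second exon that begins at 21994966.
Sgk1-213: tctggactgcagcctCTTTTATGAAACAGA
Sgk1-201: tagcgattctcatcgCTTTTATGAAACAGA
Sgk1-202: tgctgagcggactggCTTTTATGAAACAGA
Sgk1-203: gatccccttggaaagCTTTTATGAAACAGA
The capitals are the same in all 4, and they hold an ATG that the annotation gives as the start codon of Sgk1-213, at 21994971. The other 3 transcripts begin translation in their own first exons. On the minus strand of chromosome X, Tsc22d3-201 and Tsc22d3-202 join a common second exon at 140542156, from first exons that end at 140542846 and 140542511. Tsc22d3-203 starts far upstream, where its first exon ends at 140600437 and joins an exon that begins at 140598558.
Tsc22d3-201: taaactggataacagTGCCTCCGGAGCCAG
Tsc22d3-202: taggtccggagttcgTGCCTCCGGAGCCAG
Tsc22d3-203: tacctgaagtggcagCTTGTTTTTCCGGGC
The first pair share their capitals, and Tsc22d3-203 differs on both sides of the junction.

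Replicate 1 held 426150 reads and replicate 2 held 770041, of which 397176 and 712032 lay on annotated mouse genes. Levels are given as CPM, a gene's reads scaled to 1000000 reads on annotated genes, so 1 read was 2.52 CPM in replicate 1 and 1.40 CPM in replicate 2. The floor that an absent read sets is 3 reads, or 7.55 and 4.21 CPM. Intervals are 95% and cover counting error only, since the reads carry no molecular identifiers known here. The labelled tissue fitted its markers: 6 of 6 cortex genes held 7.45% and 6.73% of reads and 6 of 6 medulla genes held 1.09% and 1.20%. Kidney markers (0 of 5 read) were at 0 in both libraries, whereas the 5 liver markers had 102 reads in replicate 1 and 1 in replicate 2. Fat markers took 0.182% and 0.136%, with Ucp1 of brown fat at 209 and 199 reads. In such bulk tissue, fewer cells of a type and less RNA per cell cannot be told apart.

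Together the 10 genes took 325 reads in replicate 1, which is 0.0818% of reads on annotated genes (0.0734 to 0.0912, Wilson), and 529 reads in replicate 2, which is 0.0743% (0.0682 to 0.0809). The mean was 0.0781% ± 0.0053 (SD, n = 2). By mean level Mt1 was the most read member and Nr3c1 the least, at 201 CPM ± 11.7 and 8.14 CPM ± 4.38 (SD, n = 2). In replicate 2 alone Zfp36 (7.02 CPM) lay below Nr3c1 (11.2 CPM).

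**Figure D1:**
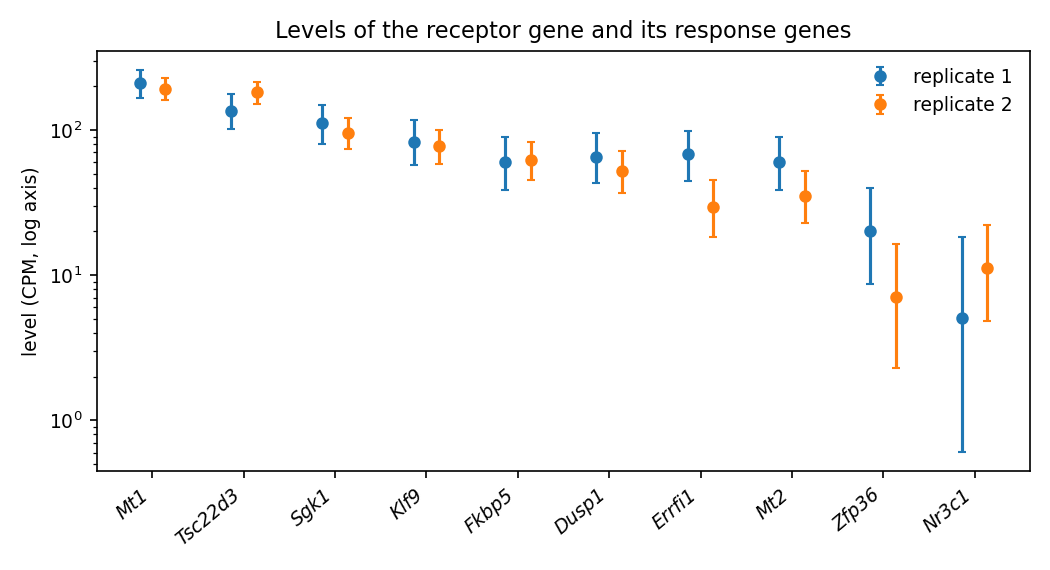
Level of each member in CPM on a log axis, for replicate 1 and replicate 2, with exact 95% Poisson intervals of each library's count. Mt1 lies highest at 209 and 192 CPM, Nr3c1 and Zfp36 lie lowest, and the intervals are widest for the genes with the fewest reads.

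Nr3c1, the receptor gene, lies on chromosome 18 from 39410545 to 39519421 on the minus strand. It had 2 reads (5.04 CPM) in replicate 1 and 8 reads (11.2 CPM) in replicate 2. The count in replicate 1 lay below the floor of 3 reads and that in replicate 2 above it. The log2 ratio of replicate 2 over replicate 1, 0.92 (-1.17 to 4.43), was not informative at this depth. In the order of all genes by level Nr3c1 stood at rank 9931 in replicate 1 and 8334 in replicate 2, while Mt1 stood at 896 and 1003. The related mineralocorticoid receptor gene Nr3c2 had 0 and 5 reads.

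Of the 10 Nr3c1 reads, 1 matched an annotated transcript in full, Nr3c1-203 in replicate 2. Another 7 reads had 9 exons in combinations of annotated splice sites that no annotated transcript holds. The spliced reads that reached the upstream region used 4 first exons, all of them annotated as first exons. The first exon from 39489477 to 39489846 had 0 and 5 reads, that from 39489745 had 1 and 0, that of Nr3c1-203 (from 39490568) had 0 and 1, and that from 39488940 had 0 and 1. All 4 joined the same second exon, which carries the annotated start codon, so these reads differ in sequence ahead of the protein. Nr3c1 is known for many untranslated first exons used in different tissues. The third exon, which codes for part of the DNA-binding domain, came in a pair of forms. It ended at 39428617 with a length of 164 bases in the 7 reads of replicate 2 that held it, and at 39428614 with a length of 167 bases in the single such read of replicate 1. The longer form adds 3 bases and is annotated, for example in Nr3c1-202. It is the splice form known as GR gamma, which carries 1 extra amino acid in the DNA-binding domain. With 8 reads in all, no share of the forms is given.

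Fkbp5 encodes an immunophilin that binds the receptor complex and lowers its affinity for hormone. It lies on chromosome 17 from 28399094 to 28517527 (minus strand). Its level was 60.4 CPM (24 reads) in replicate 1 and 61.8 CPM (44 reads) in replicate 2, a mean of 61.1 CPM ± 0.97 (SD, n = 2). The libraries gave nearly the same value, with a log2 ratio of 0.02 (-0.72 to 0.81). Of 15 annotated transcripts, Fkbp5-201 alone was read, with 18 and 31 reads. It has 11 exons and 456 coding codons. Further upstream, 1 read in replicate 2 was on a model whose first exon runs from 28507236 to 28507406. The annotation uses that splice donor in both a first and an internal exon. Another read of replicate 2 was on a model of 1 exon from 28517395 to 28517524. Reads confined to the far end of the last exon numbered 4 in replicate 1 and 6 in replicate 2.

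Tsc22d3 encodes GILZ, a leucine zipper protein that binds inflammatory transcription factors. Its level was 136 CPM (54 reads) in replicate 1 and 181 CPM (129 reads) in replicate 2, a mean of 159 CPM ± 32.0 (SD, n = 2). Replicate 2 was higher by 0.41 on the log2 scale (-0.05 to 0.90). This did not pass the two-sided exact binomial test (p = 0.077, adjusted p = 0.51 by Benjamini-Hochberg over all genes tested). Of its reads, 61.0% ± 2.50 (SD, n = 2) matched an annotated transcript, against 77.1% and 77.0% of the reads of all annotated genes.

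The short form Tsc22d3-201, which codes for the well-known protein of 137 amino acids, was the most read Tsc22d3 transcript. It had 25 reads in replicate 1 and 55 in replicate 2. Its first exon, from 140542846 to 140543187, began 81.3% (64.7 to 91.1, Wilson) and 67.9% (57.1 to 77.1) of the reads with an annotated first exon, a mean of 74.6% ± 9.44 (SD, n = 2). The denominators were 32 and 81 reads. The first exon of Tsc22d3-202, annotated as a transcript without coding sequence, began 3 of 32 reads and 20 of 81, or 9.38% and 24.7%. That difference did not pass Fisher's exact test (p = 0.076, adjusted p = 0.23 over 3 first exons). Tsc22d3-203, the long form of 201 coding codons, had 3 and 6 reads.

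Many more reads came from the upstream end than Tsc22d3-203 itself accounts for. A splice donor outside the annotation ended the first exon in 17 reads of replicate 1 and 37 of replicate 2. The donor at 140598917 had 7 and 15 reads, the donor at 140599400 had 7 and 14, and the donor at 140598878 had 1 and 5. Each of the other 5 donors had a single read. All but 1 of these 54 reads joined the second exon of Tsc22d3-203, from 140598128 to 140598558, which is 431 bases long and holds the annotated start codon of the long form at 140598439. The 53 reads also carried both of the later introns of Tsc22d3-203, so they hold its annotated coding sequence behind other first exons. Counted by that second exon, long forms made up 22 of 51 spliced reads in replicate 1, or 43.1% (30.5 to 56.7, Wilson), and 44 of 120 in replicate 2, or 36.7% (28.6 to 45.6). The mean was 39.9% ± 4.58 (SD, n = 2), and the libraries did not differ by Fisher's exact test (p = 0.49). Of the 66 long-form reads, 9 were annotated and 53 had an unannotated first exon. With those first exons in the denominator, the share of the Tsc22d3-201 first exon was 49.8%. This count was chosen after the reads had been seen. The sequence at the unannotated donors was not examined, and whether these transcripts reach further upstream was not tested.

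**Figure D2:**
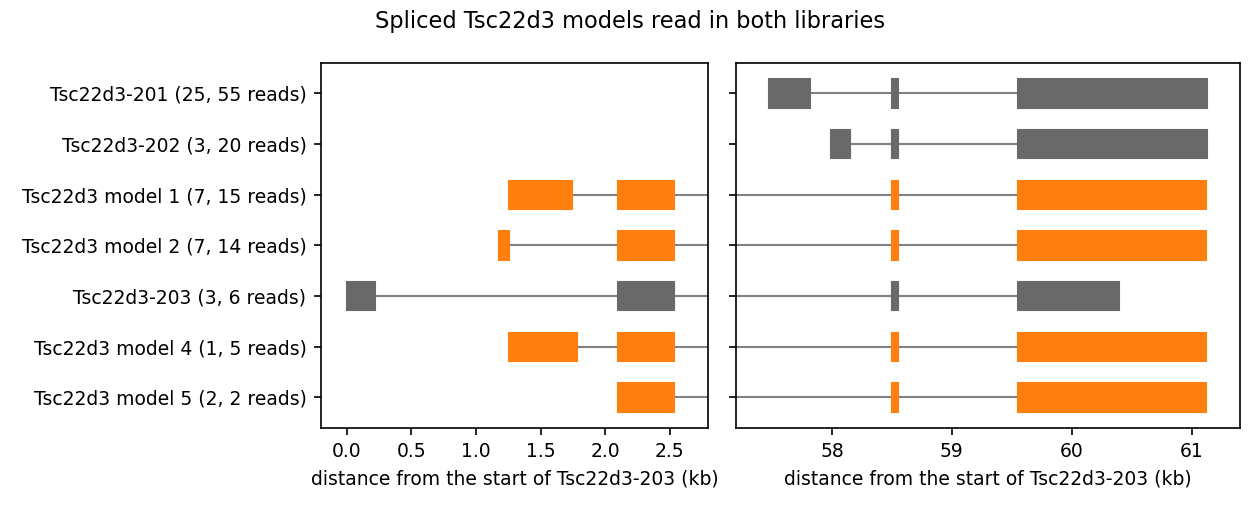
Exons of the spliced Tsc22d3 models read in both libraries, as boxes against the distance in kb from the start of Tsc22d3-203, with the long intron left out between the panels. Grey models are annotated and orange ones are not, and the numbers give the reads of replicate 1 and replicate 2. The deposited first exons of models 1, 2 and 4 (22, 21 and 6 reads) lie between the first and second exons of Tsc22d3-203. These models share its later exons. Deposited ends need not be the ends of single reads.

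Sgk1 encodes a serum- and glucocorticoid-inducible kinase that raises the surface level of ion channels and transporters. It lies on chromosome 10 from 21882184 to 21999903 (plus strand). Its level was 111 CPM (44 reads) in replicate 1 and 95.5 CPM (68 reads) in replicate 2, a mean of 103 CPM ± 10.8 (SD, n = 2). The log2 ratio of -0.22 (-0.78 to 0.37) lay within counting error.

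Both Sgk1-213 and Sgk1-201 were well used as starts. The first exon of Sgk1-213, from 21978672 to 21978982, began 14 of 34 reads with an annotated first exon in replicate 1 and 25 of 47 in replicate 2, or 41.2% (26.4 to 57.8, Wilson) and 53.2% (39.2 to 66.7). The mean was 47.2% ± 8.50 (SD, n = 2). The first exon of Sgk1-201, from 21994666 to 21994825, began 16 of 34 and 17 of 47, or 47.1% (31.5 to 63.3) and 36.2% (24.0 to 50.5), a mean of 41.6% ± 7.70 (SD, n = 2). Replicate 1 had more of Sgk1-201 and replicate 2 more of Sgk1-213, but the intervals overlap and Fisher's exact test gave p = 0.37 for each (adjusted p = 0.56 over 4 first exons). Sgk1-202 had 3 and 5 reads and Sgk1-203 had 1 and 0. The denominators hold reads whose first splice donor the annotation uses in first exons alone. The donor at 21995041 ends the annotated first exon of Sgk1-206 but also internal exons. Its 2 and 3 reads were left out. With unannotated first exons in the denominator, the mean shares were 43.1% for Sgk1-213 and 38.6% for Sgk1-201. That denominator was chosen after the reads had been seen. The far upstream first exon of Sgk1-204, at 21882184, had no read in either library.

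Sgk1-201 codes for 431 amino acids and Sgk1-213 for 404, since Sgk1-213 starts translation at the ATG in the second exon shown above. Sgk1-202 codes for 445 and Sgk1-203 for 417. The amino end of the classical Sgk1-201 protein is known to mark the kinase for rapid degradation, and the annotated Sgk1-213 protein begins after the part encoded by that first exon. An unannotated first exon further upstream ended at 21974059 and had 1 read in replicate 1 and 6 in replicate 2. Another ended at 21992043 and had 0 and 1. All 8 of these reads joined the common second exon and carried the 10 later introns of Sgk1-213. An unspliced model that runs from the start of Sgk1-213 through its first exon into the intron, to 21980450, took a further 3 and 6 reads.

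**Figure D3:**
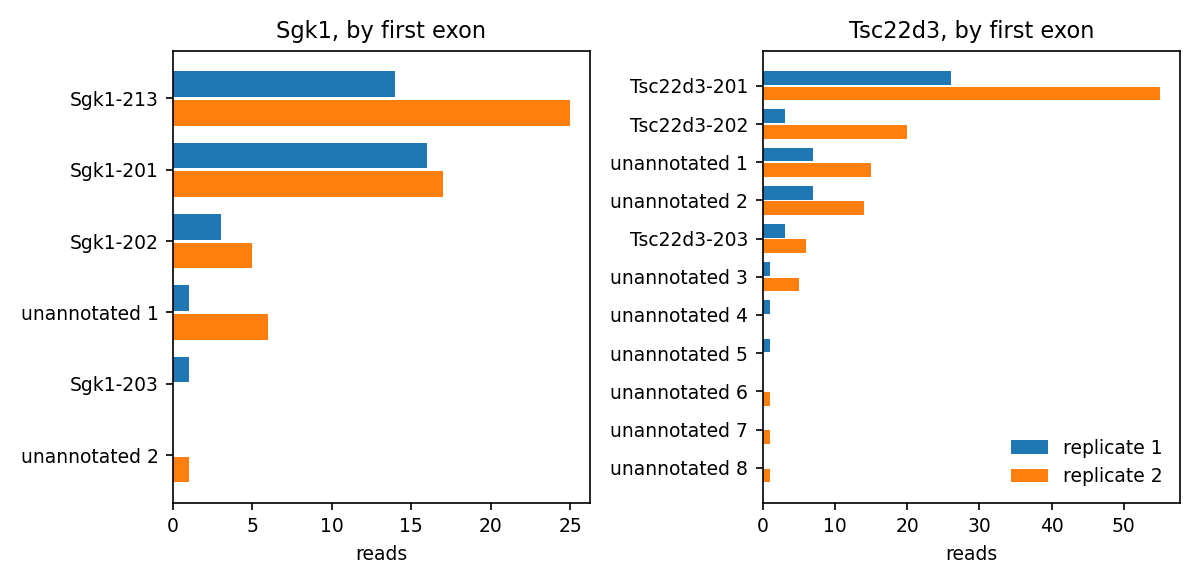
Spliced reads by first exon for Sgk1 (left) and Tsc22d3 (right) in replicate 1 and replicate 2, ordered by reads, with unannotated first exons numbered. Sgk1-213 and Sgk1-201 have 14 to 25 reads a library, and the first unannotated pair of Tsc22d3 has 7 to 15, more than the 3 and 6 of Tsc22d3-203.

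Dusp1 encodes a phosphatase that switches off p38 and JNK kinases. Its level was 65.5 CPM (26 reads) in replicate 1 and 52.0 CPM (37 reads) in replicate 2, a mean of 58.7 CPM ± 9.54 (SD, n = 2), with a log2 ratio of -0.34 (-1.10 to 0.45). Of 6 annotated transcripts Dusp1-202 alone was read, with 23 and 33 reads, and it spans 26505590 to 26508519 on chromosome 17. The annotated gene extends to 26562128 and overlaps Ergic1 on the other strand, which had 26 and 32 reads of its own. The most read Dusp1 model lies outside that overlap.

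Zfp36 encodes tristetraprolin, which binds AU-rich elements of inflammatory mRNAs and speeds their decay. It was the least read response gene, with 8 reads (20.1 CPM) in replicate 1 and 5 reads (7.02 CPM) in replicate 2. The log2 ratio of -1.47 (-3.48 to 0.27) did not pass the exact binomial test (p = 0.079, adjusted p = 0.52). Both annotated transcripts were read. Zfp36-201 of 2 exons had 6 and 2 reads, and Zfp36-202 of 1 exon had 2 and 3.

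Klf9 encodes a zinc finger transcription factor of the Krüppel-like family. Its level was similar in both libraries, at 83.1 CPM (33 reads) in replicate 1 and 77.2 CPM (55 reads) in replicate 2, a mean of 80.2 CPM ± 4.13 (SD, n = 2). Klf9 had the lowest share of reads on annotated transcripts among the members with more than 10 reads. Its spliced transcript Klf9-201 had 9 and 15 reads, 27.3% in each library. The other 24 and 40 reads were on a single model of 1 exon whose deposited ends are those of the second exon of Klf9-201, from 23164683 to 23168134 on chromosome 19. That exon is 3452 bases long and holds 227 coding bases. Models of 1 exon took 11.3% of the reads of all annotated genes in each library. Deposited ends need not be the ends of single reads: of 64 deposited member models outside the annotation, 45 had their 5′ end and 58 their 3′ end at an annotated exon boundary. Where these Klf9 reads begin within the exon is therefore not shown by the files.

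Errfi1 encodes MIG6, which binds and inhibits the EGF receptor family. Its level was 68.0 CPM (27 reads) in replicate 1 and 29.5 CPM (21 reads) in replicate 2, a mean of 48.7 CPM ± 27.2 (SD, n = 2). Replicate 1 was 2.29-fold higher, a log2 ratio of -1.20 (-2.10 to -0.33). Its unadjusted p was 0.0040 by the two-sided exact binomial test, and its adjusted p over all genes was 0.12. Without models of 1 exon the log2 ratio was -1.53 and passed the threshold (adjusted p = 0.034). Errfi1-201 was the 1 annotated transcript read of 3, with 24 and 16 reads. The 5 liver markers (102 and 1 reads) and 3 of 6 heat shock genes (Hspa1b, Hsph1 and Hspd1) were also higher in replicate 1, past the threshold, and their part in this difference was not tested.

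**Figure D4:**
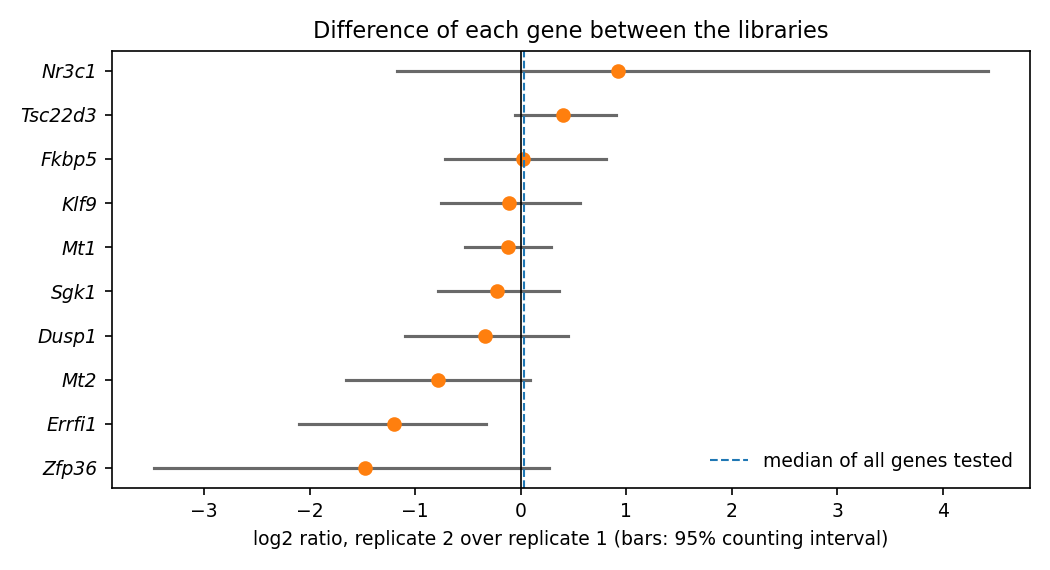
Log2 ratio of replicate 2 over replicate 1 for each member, with its exact 95% counting interval, and the median of all genes tested as a dashed line. The interval of Errfi1 alone stays clear of 0, and the widest interval is that of Nr3c1 with 10 reads.

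Mt1 and Mt2 encode metallothioneins, small cysteine-rich proteins that bind zinc and copper, and are induced by metals as well as by glucocorticoids. Mt1 was at 209 CPM (83 reads) in replicate 1 and 192 CPM (137 reads) in replicate 2, a log2 ratio of -0.12 (-0.52 to 0.29). Mt2 was at 60.4 CPM (24 reads) and 35.1 CPM (25 reads), a mean of 47.8 CPM ± 17.9 (SD, n = 2). Its log2 ratio of -0.78 (-1.65 to 0.09) did not pass the exact binomial test (p = 0.072, adjusted p = 0.50). The genes are neighbours on the plus strand of chromosome 8, Mt2 from 94172664 to 94173568 and Mt1 from 94179082 to 94180327. Each codes for 61 amino acids, and 148 of the 186 coding bases, stop codon included, are identical (79.6%). Mt1-201 took 80 and 133 of the Mt1 reads, Mt1-202 took 2 and 3, and Mt1-203 took 1 and 1. Mt2-201 took 18 and 21 of the Mt2 reads, and a 153-base stretch of its last exon took the other 6 and 4.

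RefSeq promoter windows on build GRCm38.p6 run from 250 bases before to 50 bases after a gene's start. They were matched for 9 of the 10 members, 17 windows in all, and Nr3c1 had none. Not every start that was read had a window. The Tsc22d3 windows had starts at 140542668, 140548571 and 140600522, and none lay at the start of Tsc22d3-201 (140543187). The Zfp36 window had its start at 28379228, inside the first exon of Zfp36-201 (28379174 to 28380253). The stretches upstream of Mt2 and Mt1 are shown because Mt2-201 and Mt1-201 took most reads of these genes. They are set by annotated starts, and where the single reads begin was not examined. The Mt1 stretch ends right before Mt1-201. The Mt2 stretch ends before the RefSeq start at 94172618, while Mt2-201 begins at 94172664, so the bases between are not shown. Capitals mark the metal response core TGCACNC or TGCGCNC, or the glucocorticoid response motif (GNACA and TGTNC set 3 bases apart), searched on both strands. The Mt2 stretch is chr8:94172368-94172617 and the Mt1 stretch is chr8:94178839-94179081, both on the plus strand.
Mt2 upstream: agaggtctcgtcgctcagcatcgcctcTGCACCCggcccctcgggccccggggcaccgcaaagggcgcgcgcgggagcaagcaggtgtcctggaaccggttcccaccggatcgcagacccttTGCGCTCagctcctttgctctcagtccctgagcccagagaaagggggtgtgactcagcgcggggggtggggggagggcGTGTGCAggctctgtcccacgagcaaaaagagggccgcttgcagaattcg
Mt1 upstream: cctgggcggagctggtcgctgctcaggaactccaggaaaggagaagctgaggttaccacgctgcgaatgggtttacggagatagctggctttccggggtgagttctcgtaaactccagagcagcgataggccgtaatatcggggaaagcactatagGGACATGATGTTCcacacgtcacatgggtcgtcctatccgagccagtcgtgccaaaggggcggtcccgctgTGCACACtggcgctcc
The Mt2 stretch held 3 metal response cores. The Mt1 stretch held 1 metal response core and 1 glucocorticoid response motif. Over the whole windows, Mt2 held 4 metal response cores and Mt1 held 3. At least 3 such cores stood in 1.97% of all 32851 promoter windows, and at least 1 in 25.7%. The glucocorticoid response motif stood in 0.475% of all windows and in 2 of the 17 member windows, those of Mt1 and Sgk1-202. The metal response transcription factor gene Mtf1 had 9 and 4 reads.

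The stretches before the annotated starts of Sgk1-213 and Sgk1-201 are shown likewise, on the plus strand. The TATA box motif TATAAA was also searched on both strands and set in capitals. The stretch before Sgk1-213 is chr10:21978422-21978671 and that before Sgk1-201 is chr10:21994416-21994665.
Sgk1-213 upstream: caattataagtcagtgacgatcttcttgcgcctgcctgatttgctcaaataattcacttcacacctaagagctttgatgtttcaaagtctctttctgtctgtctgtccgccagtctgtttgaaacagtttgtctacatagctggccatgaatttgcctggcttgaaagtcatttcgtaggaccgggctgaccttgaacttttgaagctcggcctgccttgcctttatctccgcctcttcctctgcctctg
Sgk1-201 upstream: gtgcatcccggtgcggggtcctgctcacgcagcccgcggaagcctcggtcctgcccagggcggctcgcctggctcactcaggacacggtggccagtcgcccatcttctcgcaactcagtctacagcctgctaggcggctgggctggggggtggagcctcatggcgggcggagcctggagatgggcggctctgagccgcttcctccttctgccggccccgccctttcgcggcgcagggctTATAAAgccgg
The Sgk1-201 stretch held a TATA box motif near its end, and the Sgk1-213 stretch held none of the letters searched. The TATA motif stood in 13.6% of all windows. In the 17 member windows the cAMP response motif TGACGTCA, which CREB binds, stood in those of Dusp1 and Errfi1 (at the start of Errfi1-201), against 1.79% of all windows. A match of letters is a description of the sequence and does not show binding.

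Ordered by mean level in CPM, the members ran Mt1, Tsc22d3, Sgk1, Klf9, Fkbp5, Dusp1, Errfi1, Mt2, Zfp36 and Nr3c1. Neighbours in this order had overlapping Poisson intervals in both libraries, except that Tsc22d3 lay above Sgk1 and Mt2 above Zfp36 in replicate 2 without overlap. On annotated transcripts alone Klf9 was at 21.9 CPM, below Dusp1 (52.1), Fkbp5 (44.4), Errfi1 (41.4) and Mt2 (37.4), since most of its reads were on the 1-exon model. Since 1 read is 1 cDNA, CPM here does not grow with transcript length. A second scale, given beside it, raises genes with short models and does not rank the members by number of cDNAs. Per kb of mean model length, Mt1 stayed first at 357 CPM per kb ± 20.1 (SD, n = 2) and Mt2 moved from the eighth place to the second at 110 ± 46.7. Tsc22d3 followed at 81.1 ± 18.1 and Sgk1 at 43.3 ± 5.29 CPM per kb. Dusp1 came to 29.9 ± 6.38, Klf9 to 21.5 ± 1.11, Fkbp5 to 20.6 ± 0.91 and Errfi1 to 16.4 ± 9.0 CPM per kb. Zfp36 at 5.07 ± 3.34 and Nr3c1 at 1.58 ± 0.42 CPM per kb remained last.

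Between the libraries, 199 of 9271 genes tested passed the exact binomial test at an adjusted p under 0.05, which is 2.15%. Of the members, 0 of 10 passed, and 1 of 10 (Errfi1) had an unadjusted p under that threshold, against 11.5% of all genes. The median log2 ratio of the 10 members was -0.17, against 0.03 for all genes tested. It lay below 0 in 7 members, against 47.9% of genes. Use of annotated transcripts differed in 0.161% of 1866 genes tested. Sgk1, Tsc22d3 and Mt1 were tested there and none was called, each with adjusted p = 1 by Fisher's exact test.

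Of the 61 annotated transcripts of the 10 genes, 19 were read and 16 were read in both libraries. A further 53 models lay outside the annotation, 11 of them in both libraries, and 33 rested on a single read. The share of a gene's reads on annotated transcripts was 100% for Mt1 and Zfp36, 88.8% ± 0.51 for Dusp1, 82.5% ± 8.98 for Errfi1 and 79.5% ± 6.36 for Mt2 (SD, n = 2). It was 72.7% ± 3.21 for Fkbp5, 69.9% ± 7.28 for Sgk1 and 27.3% for Klf9 (SD, n = 2). Antisense models outside the annotation lay over 7 of the 10 genes. Fkbp5 had 6 and 11 such reads, Sgk1 had 5 and 10, and Tsc22d3 had 2 and 6.

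**Figure D5:**
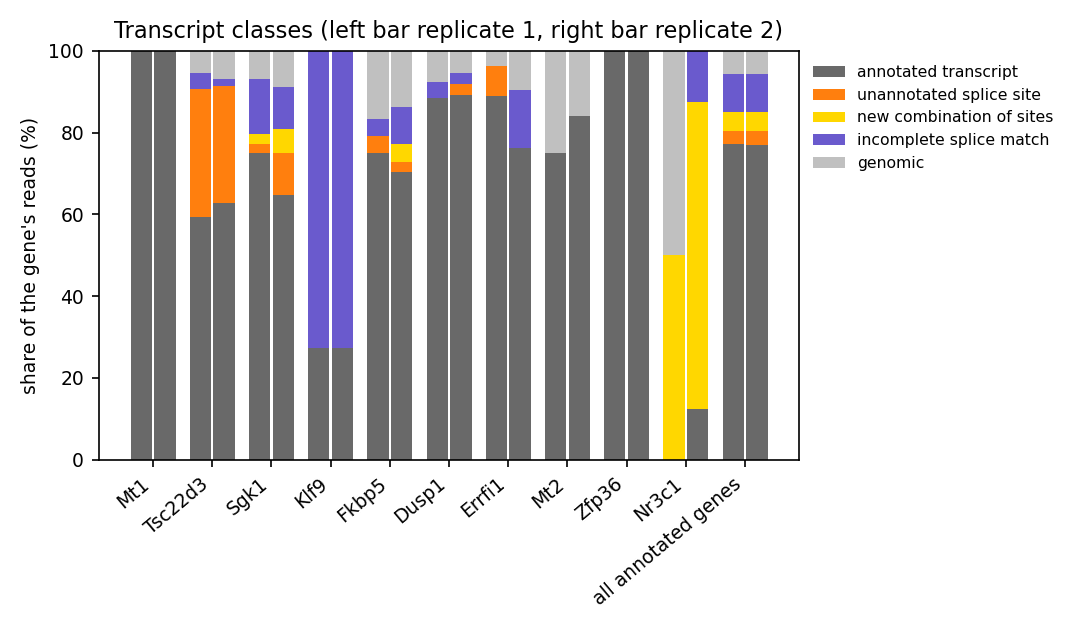
Share of each member's reads by transcript class, with replicate 1 on the left and replicate 2 on the right of each pair, beside the same shares over all annotated genes. Tsc22d3 stands out for unannotated splice sites, Klf9 for incomplete splice matches and Nr3c1 for new combinations of sites on 10 reads.

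The receptor's chaperone machinery was the pathway group with the most genes that differed between the libraries. Of 10 genes tested, 4 were higher in replicate 1 and 0 in replicate 2, where 1.35% and 0.798% of all genes were called in each direction. The 4 were Hspa8 (2019 and 1183 CPM, adjusted p = 8.6e-24), Hsp90ab1 (2669 and 2066 CPM, adjusted p = 1.0e-07), Hsp90aa1 (378 and 213 CPM, adjusted p = 0.00015) and Stip1 (264 and 156 CPM, adjusted p = 0.0091) by the exact binomial test. They encode the heat shock proteins that fold the receptor and the protein that bridges them. The group's median log2 ratio was -0.47. A test of counts calls well-read genes more readily, so the share over all genes is not matched for reads. Of 6 cortex markers, 3 were higher in replicate 1 and 1 in replicate 2. Of 6 medulla markers, 1 was higher in replicate 1 and 2 in replicate 2. Fkbp4, which encodes the immunophilin that competes with the Fkbp5 protein, was at 453 and 353 CPM, above Fkbp5 in both libraries. The separate heat shock markers Hsph1 (77 and 30 reads) and Hspa1b (57 and 37 reads) were higher in replicate 1 too (exact binomial test, adjusted p = 2.7e-11 and 0.00020). Their part was not tested.

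Among genes of ligand supply, Hsd11b1, which regenerates active glucocorticoid, was at 80.6 and 84.3 CPM. Hsd11b2, which inactivates it, had 1 and 0 reads. Abcb1b, a steroid-exporting transporter highly expressed in the adrenal, was at 4265 and 3479 CPM, so replicate 1 was the higher (exact binomial test, adjusted p = 5.0e-08). It was the 1 gene called of 4 tested in this group. Of the receptor's coregulators, 6 of 11 had enough reads to be tested and 0 were called. Hdac3 was the highest at 133 and 124 CPM.

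Of 29 other glucocorticoid response genes, 20 were tested, and replicate 1 was higher for 2 of them and replicate 2 for 0. The group's median log2 ratio was 0.11. Pdk4, which restrains glucose oxidation, was at 166 and 67.4 CPM (adjusted p = 0.00026 by the exact binomial test). Pck1, the enzyme of gluconeogenesis and of glycerol synthesis in fat, was at 232 and 136 CPM (adjusted p = 0.022 by the same test). Both are expressed in liver or fat. Ucp1 of brown fat (526 and 279 CPM) and the liver markers also were higher in replicate 1. Ucp1 was the 1 fat marker called of 5, though all 5 had log2 ratios below 0. The part of fat and liver was not tested. The highest genes of the group were Cebpb at 3398 CPM ± 191, which encodes a transcription factor, and the cell cycle inhibitor Cdkn1c at 1499 CPM ± 5.08 (SD, n = 2). Each was read more than any member.

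Paralogs of the members gave 0 calls of 15 tested. Tsc22d1, at 899 and 1093 CPM, was read more than Tsc22d3 in both libraries. Sgk3 had 2 and 13 reads and Sgk2 had 3 and 2, against 44 and 68 for Sgk1. Klf15, itself a known glucocorticoid target, was at 85.6 and 80.1 CPM, beside Klf9 at 83.1 and 77.2. The brain metallothionein Mt3 had 1 and 2 reads and Mt4 had 0. In the metal response group 0 of 6 genes were called, and Gclc was its highest at 57.9 and 52.0 CPM. Of the immediate early genes, which can rise within minutes of handling, Fos and Fosb each had 0 and 1 reads, while Jun had 100 and 138 reads and Junb 48 and 77.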

How the data were processed

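The 2 libraries of adrenal gland RNA were analysed from the deposited tables. Per the file headers, the authors gave whole-number counts of reads per transcript model, 1 table per library. Per the notes beside the files, reads were placed on mm10 and assigned to GENCODE M21. The deposited annotations name TALON as the source of the models. The aligner is not given in the sources used here.

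A gene's count was the sum over its models. Models with the same intron chain were merged within and between libraries for description. The level of each gene with at least 10 reads in all was tested between the libraries with a two-sided exact binomial test on its share of replicate 2. P-values were adjusted over all such genes after Benjamini and Hochberg, and 0.05 was the threshold. An offset of 0.5 went into both counts of a log2 ratio. First exons and transcript use (at least 20 annotated reads in each library) were compared by Fisher's exact test. Python 3.11.15, scipy 1.17.1 and, for alternative scaling, edgeR 4.0.16 and DESeq2 1.42.0 were used. The tests were checked on simulated data drawn with counting error only, so that check does not cover spread between animals.

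The members and the gene lists were chosen with earlier results of these data known. Beyond the members, the rule allowed up to 3 of the highest genes of each list and every gene past the threshold. Other genes named beside them (Nr3c2, Hsd11b2, the paralogs other than the 3 highest, Mtf1 and the markers) were chosen after their values were seen. Alternatives were annotated transcripts alone, no models of 1 exon, other scalings, other minimum counts (1 and 20 reads), and each library alone. Unannotated first exons were added to the first-exon shares after seeing the data.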

Additional observations from a re-analysis of the deposited data

How the results depend on the processing

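The number of genes past the threshold between the libraries, 199, was 170 on annotated transcripts alone, 184 without models of 1 exon, 206 with edgeR TMM scaling, 203 with DESeq2 size factors, 152 with genes of at least 1 read and 199 with at least 20. TMM moved the log2 ratios by -0.05 and DESeq2 by -0.05. Fkbp5, at 0.02, turned to -0.073 on annotated transcripts alone, -0.030 with TMM and -0.027 with DESeq2, all close to 0. Errfi1 passed the threshold without models of 1 exon alone (-1.53, adjusted p = 0.034, exact binomial test), and its adjusted p under the other alternatives ran from 0.083 to 0.20. No other member changed direction or its side of the threshold. With unannotated first exons in the denominator, the first-exon share was 49.8% for Tsc22d3-201 and 11.5% for Tsc22d3-202. It was 43.1% for Sgk1-213 and 38.6% for Sgk1-201. Each library alone gave 41.2 to 53.2% for the Sgk1-213 first exon, 36.2 to 47.1% for Sgk1-201, 67.9 to 81.3% for Tsc22d3-201, 9.38 to 24.7% for Tsc22d3-202, and 0.0743 to 0.0818% of reads for the 10 genes. On annotated transcripts alone the levels of Klf9 (80.2 to 21.9 CPM), Tsc22d3 (159 to 97.2) and Nr3c1 (8.14 to 0.70) fell by over 1.5 times, and without models of 1 exon those of Klf9 (to 21.9) and Zfp36 (13.6 to 8.96) did. Depth limits Nr3c1 (2 and 8 reads) and Zfp36 (8 and 5 reads), and Nr3c1 in replicate 1 lay below the floor of 3 reads. No paired analysis was possible because the labels give 1 group.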
